A study of Rattus norvegicus with 18 samples.

Results

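Mitochondrial biogenesis regulators are a set of 8 rat genes whose products take part in building and running mitochondria: the coactivators Ppargc1a and Ppargc1b, the transcription factors Nrf1, Esrra, Ppara and Ppard, the mitochondrial DNA packaging factor Tfam, and the mitochondrial deacetylase Sirt3. A probe set was taken as a member where its only gene symbol was 1 of these. This gave 13 of the 31042 probe sets tested and 8 of the 14217 genes represented. Ppargc1a and Nrf1 had 3 probe sets each, Ppard had 2, and each other gene had 1. The probe set with the highest mean over the 18 arrays stands for its gene, and the others are given beside it.

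The arrays hold RNA of the musculus soleus, a postural calf muscle, of male rats that had lost most of their kidney tissue by 5/6 nephrectomy (SNX), a model of chronic kidney disease, or had a sham operation. The femoral artery of the right hindlimb was tied and cut out 8 weeks later, and both limbs were sampled 24 hours after that. The groups are the right, ligated limb of 5 SNX rats, the left limb of the same SNX rats, the right limb of 4 sham rats and the left limb of the same sham rats. Rats 12, 18, 20, 37 and 49 are SNX and rats 11, 13, 15 and 17 are sham, where the number in each title was read as the animal. The source field of the labels calls every SNX array ischemic and every sham array nonischemic, which goes against the design text, so limbs are named here by side. Sham rats also had the artery ligated, so no rat without ligation was measured, and the left limb is the other limb of a ligated animal.

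PGC-1alpha, the product of Ppargc1a, has no DNA contact of its own: it docks on transcription factors such as ERRalpha (Esrra), PPARalpha (Ppara), PPARdelta (Ppard) and nuclear respiratory factor 1 (Nrf1) and draws in the machinery that opens chromatin. NRF1 and its partners act on the promoter of Tfam, whose protein enters the mitochondrion, coats mitochondrial DNA and starts its transcription. In muscle, Ppargc1a is known as a gene that exercise, cold and energy shortage raise within hours, through AMP-activated kinase, calcium signalling and CREB. SIRT3 acts at the far end of this chain and removes acetyl groups from enzymes of oxidation inside the organelle.

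The promoters of the pair of genes on which the results turn, and of Esrra for comparison, are shown first. Each window runs from 250 bases before to 50 bases after the RefSeq start of the gene in build GRCr8: Ppargc1a is at chr14:63634058-63634357 on the plus strand, Tfam at chr20:17355123-17355422 on the plus strand and Esrra at chr1:213543256-213543555 on the minus strand. Sequences are those of RefSeq, 5′ to 3′ along the gene. Capitals mark matches of letters: the 8 letters TGACGTCA of the cAMP response element in Ppargc1a, CCGGAAG of the GABP motif in Tfam, and TGCGCA of the NRF1 motif in Esrra.
Ppargc1a: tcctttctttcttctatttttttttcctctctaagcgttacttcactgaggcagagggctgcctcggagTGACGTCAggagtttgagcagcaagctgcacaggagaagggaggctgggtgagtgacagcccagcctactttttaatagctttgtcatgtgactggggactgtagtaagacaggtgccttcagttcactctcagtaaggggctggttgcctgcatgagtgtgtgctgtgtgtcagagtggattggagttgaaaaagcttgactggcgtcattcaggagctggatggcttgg
Tfam: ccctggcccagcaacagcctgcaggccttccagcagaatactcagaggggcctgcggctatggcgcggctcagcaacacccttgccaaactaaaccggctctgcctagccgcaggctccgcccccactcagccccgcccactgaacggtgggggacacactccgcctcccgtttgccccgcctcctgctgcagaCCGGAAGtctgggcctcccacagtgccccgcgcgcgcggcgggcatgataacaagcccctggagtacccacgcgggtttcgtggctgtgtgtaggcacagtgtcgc
Esrra: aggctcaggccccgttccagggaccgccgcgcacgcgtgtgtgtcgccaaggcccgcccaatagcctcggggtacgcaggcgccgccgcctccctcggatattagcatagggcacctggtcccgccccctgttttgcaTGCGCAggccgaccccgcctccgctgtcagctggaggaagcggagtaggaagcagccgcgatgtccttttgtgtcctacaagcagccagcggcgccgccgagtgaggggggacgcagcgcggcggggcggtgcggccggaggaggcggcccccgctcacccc
On either strand, TGACGTCA stood in 1.83% of all 33469 rat promoter windows, CCGGAAG in 8.75% and TGCGCA in 7.24%; CCGGAAG was added to the search after the windows had been seen. The element of Ppargc1a lay 181 to 174 bases before its start, that of Tfam 56 to 50 bases before and that of Esrra 112 to 107 bases before. The G and C content of the Ppargc1a window was 50.3%, close to the 51.7% median of all windows, against 67.7% for Tfam and 72% for Esrra. The window of Ppara held the NRF1 palindrome GCGCATGCGC, found in 0.852% of windows. The Tfam window held neither this palindrome nor TGCGCA. None of the 7 member windows held AGGTCA, the core motif of nuclear receptors (16.2% of windows). A match of letters is a description and says nothing of binding.

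Values are log2 expression as the authors deposited them, already normalized, so a difference of 1 is a doubling, and a level of 1 probe set cannot be set against that of another. Array medians lay between 3.23 and 3.38. Least like the rest were the ligated limbs of sham rat 17 and SNX rat 49, whose mean correlation to the other arrays was 0.978 and 0.980, against 0.987 to 0.992 for the others. Of 10 slow fibre markers 9, and of 9 fast fibre markers all 9, were above the median of their own array on every array. The mean of the slow markers ran from 10.04 to 12.92 in SNX right, 11.99 to 13.81 in SNX left, 12.09 to 13.52 in sham right and 10.93 to 13.49 in sham left limbs. The mean of the fast markers lay between 14.46 and 14.93 on every array. The fast markers thus read far above the array medians throughout, while the slow mean varied more, from 10.04 to 13.81. The name soleus comes from the labels, and whether these fibre markers bear it out was not tested. The part of fibre content in the regulators' differences was not tested either. Macrophage markers moved with the side: their mean over 13 genes ran from 5.59 to 8.47 in SNX right against 5.17 to 5.79 in SNX left limbs, and from 6.44 to 9.15 in sham right against 5.83 to 6.64 in sham left limbs. SNX rat 20 went the other way, with 5.59 on the right and 5.79 on the left. Of these 13 genes 11 were above their array's median on every array. Markers of other cells also differed by side: in SNX rats 10 of 10 fibroblast markers (median 0.70) and 5 of 5 Schwann cell markers (median 1.58) were higher on the right, with 0 called and 5 and 2 at an unadjusted limma p under 0.05. In sham rats these were 8 of 10 (median 0.22) and 3 of 5 (median 0.19). Of all 31042 probe sets 2459 were at an unadjusted limma p under 0.05 in SNX rats. Of 9 endothelial markers 7 lay above 0 and 2 below 0 over the mean of both operations. limma called 2 higher, Kdr and Pecam1, both named after their values were seen, and 1.55% of all probe sets. With the 2 limbs of each rat tied together as a random block it called 3 higher and 1 lower. That fit called 4.56% of all probe sets higher and 4.48% lower. In a whole muscle, fewer cells of a type and less RNA per cell cannot be told apart.

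None of the 8 regulators passed the test in any of the 6 comparisons. limma, with Benjamini-Hochberg adjustment over all 31042 probe sets and a threshold of 0.05, called 0 of 8 regulators in the right against the left limb of SNX rats, where it called 0.0451% of all probe sets, and 0 of 8 in sham rats, where it called 0.148%. Over the mean of both operations it called 0 of 8 against 2.55% of all probe sets (1.55% higher, 0.999% lower). Between SNX and sham rats it called 0 of 8 in the right limb (0% of all probe sets), 0 of 8 in the left limb (0.00644%) and 0 of 8 for the difference between the right minus left responses of SNX and sham rats (0%). At an unadjusted p under 0.05, 1 of 8 would have passed in the mean of both operations, Tfam, and 0 of 8 in each of the other 5 comparisons. Of all 31042 probe sets 5866 were at that p in the mean of both operations. There were 2459 in SNX rats and 3828 in sham rats. Between SNX and sham rats there were 2872 in the right limb, 1941 in the left and 437 for the difference of the responses.

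When the 2 limbs of each rat were tied together as a random block, 1 regulator was called: Tfam, lower in the right limb over the mean of both operations. That fit called 9.05% of all probe sets in the same comparison, 4.56% higher and 4.48% lower. In the other comparisons it called 0 of 8, against 0.319% of all probe sets in SNX rats and 1.8% in sham rats. The median difference of the 8 regulators, right minus left, was -0.04 in SNX rats, against -0.01 for all genes, and 0.05 in sham rats, against -0.02 for all genes.

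**Figure D1:**
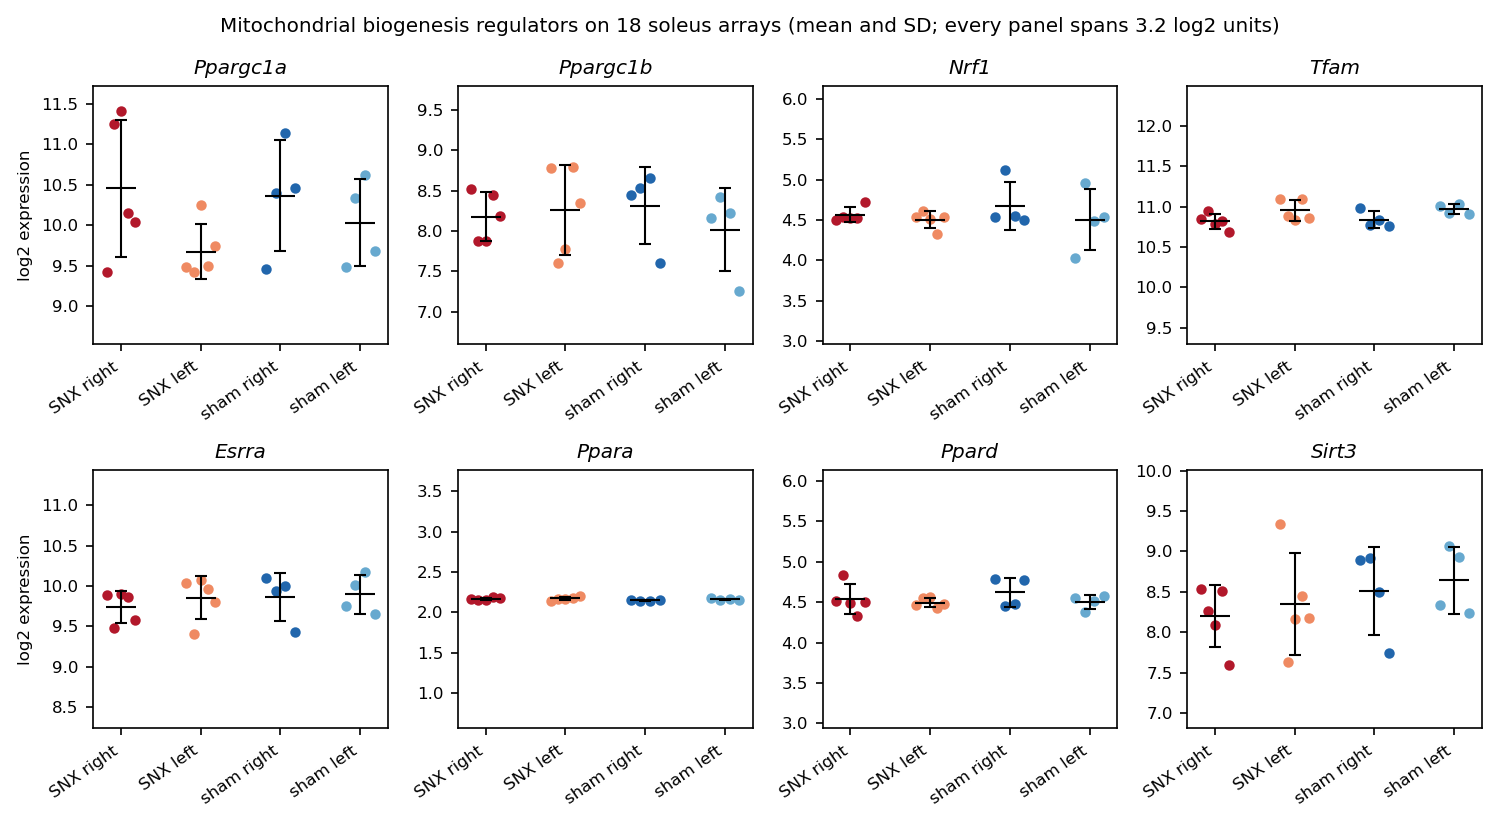
Log2 expression of the 8 regulators in each array, 1 panel per gene, with the 4 groups along the x axis; points are rats, the bar is the mean and the whisker the SD (n = 5 SNX, n = 4 sham). Every panel spans the same number of log2 units, so the wide scatter of Ppargc1a, whose highest and lowest arrays lay 2.00 apart, can be set beside the narrow band of Tfam, 0.41 from end to end.

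Ppargc1a reached its highest values in ligated limbs, but not in every rat. In rats 12, 18, 20, 37 and 49 its probe set 1393743_at read 9.42, 11.25, 11.42, 10.15 and 10.04 in the SNX right limb, against 9.48, 9.42, 10.24, 9.49 and 9.74 in the SNX left limb. In rats 11, 13, 15 and 17 it read 9.46, 10.40, 11.14 and 10.46 in the sham right limb, against 9.48, 10.33, 10.62 and 9.68 in the sham left limb. The right limb was the higher one in 4 of 5 SNX rats and 3 of 4 sham rats; SNX rat 12 and sham rat 11 had almost equal limbs, with differences of -0.06 and -0.02. The groups overlapped in both operations: the right-limb values of SNX rats 12, 37 and 49 lay below the highest SNX left value, and those of sham rats 11, 13 and 17 below the highest sham left value.

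The size of the Ppargc1a response differed widely between rats. The largest right minus left differences were 1.83 in SNX rat 18 and 1.17 in SNX rat 20, and the next was 0.78 in sham rat 17. The mean was 10.45 ± 0.85 in SNX right against 9.67 ± 0.34 in SNX left limbs (SD, n = 5 each), and 10.37 ± 0.69 in sham right against 10.03 ± 0.54 in sham left limbs (SD, n = 4 each). In SNX rats the difference was 0.78 (SE 0.39, 95% interval -0.05 to 1.61, limma adjusted p 0.663), a fold of 1.72. In sham rats it was 0.34 (SE 0.43, -0.59 to 1.26, limma adjusted p 0.704). Neither difference passed the test. With the rat as a random block the SNX interval was 0.11 to 1.45 and left out 0 (limma unadjusted p 0.0247, adjusted p 0.309), and the sham interval was -0.41 to 1.08.

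The other probe sets of Ppargc1a gave a like picture. Over the 18 arrays the 3 probe sets correlated at 0.91 to 0.94 with each other, and 1370089_at differed by 0.99 and 1395518_at by 1.03 between the right and left limbs of SNX rats. The SNX intervals on these probe sets just left out 0, at 0.01 to 1.97 and 0.01 to 2.06, with limma unadjusted p of 0.0481 and 0.0483 and adjusted p of 0.627 and 0.628. In sham rats these differences were 0.41 and 0.38. On both, the right limb exceeded the left in 4 of 5 SNX rats, rat 12 again being the exception, and in 3 of 4 sham rats, where rat 13 was the exception. On 1395518_at SNX rat 18 read 9.17 on the right and 6.61 on the left, a difference of 2.56. Without SNX rat 18 the SNX difference on 1393743_at was 0.52. The SD of 1393743_at over all arrays, 0.66, was larger than that of 94.8% of probe sets.

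**Figure D2:**
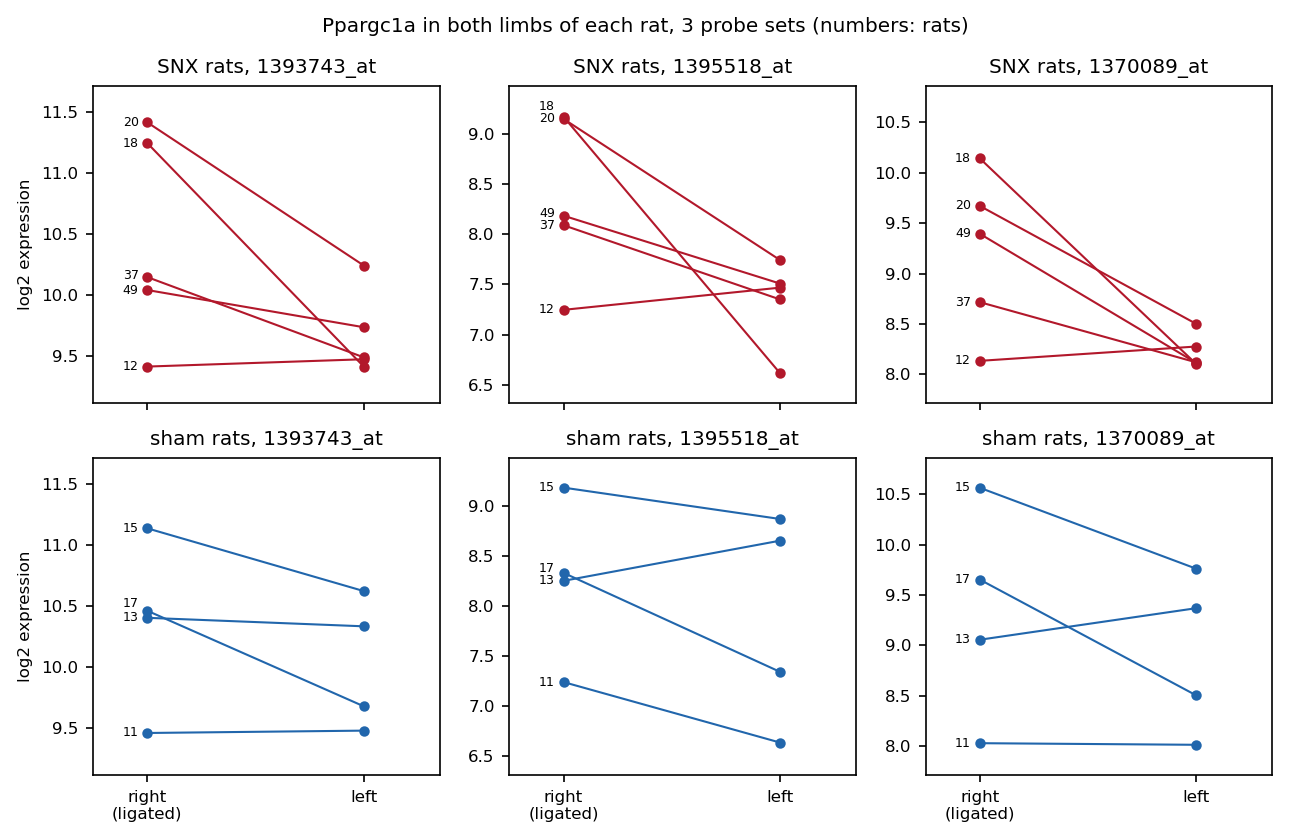
Log2 expression of Ppargc1a in the right (ligated) and left limb of each rat, joined by a line; columns are the 3 probe sets, the upper row holds 5 SNX rats and the lower row 4 sham rats, numbered. Most lines fall towards the left limb, steepest in SNX rat 18, while SNX rat 12 and sham rat 11 are nearly level or cross the other way on 1393743_at.

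Ppargc1b, the close relative of Ppargc1a that keeps up basal mitochondrial content, moved with it in some rats but not in others. Sham rats 11, 13, 15 and 17 read 8.45, 8.54, 8.66 and 7.61 in the sham right limb, against 8.17, 8.43, 8.22 and 7.26 in the sham left limb, so that the right was higher in 4 of 4. In rats 12, 18, 20, 37 and 49 it read 8.52, 7.88, 7.87, 8.44 and 8.19 in the SNX right limb, against 8.78, 7.61, 7.77, 8.80 and 8.35 in the SNX left limb. Here only rats 18 and 20, the pair with the largest Ppargc1a response, were higher on the right.

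Rats of 1 group lay far apart in Ppargc1b, and sham rat 17 was the lowest sham rat in both limbs. The right minus left difference was -0.08 (SE 0.29, 95% interval -0.69 to 0.53, limma adjusted p 0.978) in SNX rats and 0.30 (SE 0.32, -0.39 to 0.98, limma adjusted p 0.657) in sham rats. The difference between these responses, SNX minus sham, was -0.38 (95% interval -1.30 to 0.54, limma adjusted p 0.9999), so the pattern of 4 of 4 against 2 of 5 rats did not pass a test. By group means 0 of 10 slow fibre markers were higher on the right in SNX rats (median -0.34). In sham rats 10 of 10 were (median 0.42), and none was called or at an unadjusted limma p under 0.05. Not every rat followed this split. The slow marker mean was higher on the right in SNX rats 18 (12.91 against 12.21), 37 (12.92 against 12.88) and 49 (12.75 against 12.24). It was lower there in SNX rats 12 (12.76 against 13.81) and 20 (10.04 against 11.99). In sham rats it was higher on the right in 11 (13.52 against 12.05) and 17 (12.09 against 10.93). It was lower in 13 (13.37 against 13.49) and 15 (12.40 against 13.12). The part of the slow markers in the Ppargc1b pattern was not tested. The 4 group means of Ppargc1b ran from 8.32 in sham right, through 8.26 in SNX left and 8.18 in SNX right, to 8.02 in sham left limbs. No neighbours in that order differed by more than their SD, which was 0.30 to 0.56.

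Tfam, which packages mitochondrial DNA, shifted by a small amount in most rats. In rats 12, 18, 20, 37 and 49 it read 10.85, 10.95, 10.78, 10.83 and 10.69 in the SNX right limb, against 11.10, 10.89, 10.83, 11.10 and 10.86 in the SNX left limb. In rats 11, 13, 15 and 17 it read 10.99, 10.77, 10.84 and 10.76 in the sham right limb, against 11.01, 10.93, 11.03 and 10.91 in the sham left limb. The right limb was lower in 4 of 5 SNX rats, rat 18 being the exception, and in 4 of 4 sham rats.

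The Tfam difference was -0.13 in SNX rats (SE 0.06, limma adjusted p 0.632) and -0.13 in sham rats (SE 0.07, limma adjusted p 0.469). Over the mean of both it was -0.13 (SE 0.05, 95% interval -0.23 to -0.03), a fold of 0.912, with a limma adjusted p of 0.145 without the block and 0.0491 with the rat as a random block. With the rat as a fixed term the adjusted p was 0.0863. The blocked call held in 2 of 9 fits that left out 1 rat, those without SNX rat 18 or SNX rat 20, with adjusted p from 0.0443 to 0.125, and the difference stayed between -0.16 and -0.12. Without the 2 arrays that stood apart the blocked difference was -0.11 with an adjusted p of 0.157. The fall of Tfam in the right limb is therefore a call of 1 fit, close to its threshold.

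Esrra encodes ERRalpha, the main partner through which PGC-1alpha reaches respiratory genes. It read 9.48 to 9.90 in SNX right against 9.41 to 10.08 in SNX left limbs, and 9.43 to 10.10 in sham right against 9.65 to 10.17 in sham left limbs. The groups overlapped almost fully, and the right limb was lower in 4 of 5 SNX rats and 3 of 4 sham rats. The difference was -0.11 (SE 0.15, limma adjusted p 0.912) in SNX rats and -0.03 (SE 0.17, limma adjusted p 0.935) in sham rats.

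Nrf1 encodes nuclear respiratory factor 1, which binds many respiratory gene promoters. Its probe set 1382071_at read 4.50 to 4.73 in SNX right against 4.32 to 4.61 in SNX left limbs, and 4.51 to 5.12 in sham right against 4.03 to 4.96 in sham left limbs. Both limbs of sham rat 13 were the highest of their group, at 5.12 and 4.96, and no other array exceeded 4.73. The difference was 0.06 (SE 0.14, limma adjusted p 0.964) in SNX rats and 0.17 (SE 0.16, limma adjusted p 0.611) in sham rats. Its second probe set, 1381895_at, differed by 0.01 and -0.03. The third, 1385617_at, was below the median of its array on every array.

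Among the receptors for fatty acids, Ppard was measured with little contrast and Ppara was hardly measured. Ppard encodes PPARdelta, the prevalent PPAR of skeletal muscle. On 1374914_at it read 4.33 to 4.84 in SNX right against 4.43 to 4.56 in SNX left limbs, and 4.45 to 4.78 in sham right against 4.38 to 4.57 in sham left limbs. The difference was 0.04 (SE 0.09, limma adjusted p 0.954) in SNX rats and 0.12 (SE 0.10, limma adjusted p 0.580) in sham rats. Ppara encodes PPARalpha, a receptor that drives fatty acid oxidation and is best known from liver and heart. Its 1 probe set lay between 2.14 and 2.21 on all 18 arrays, below the median of every array. The second Ppard probe set lay between 2.15 and 2.26, also below the median of every array. A change of either transcript would not have been detectable on these probe sets unless it lifted the signal out of that low range.

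Sirt3 varied among rats more than between limbs. It read 8.54, 8.26, 8.09, 8.51 and 7.59 in the SNX right limb of rats 12, 18, 20, 37 and 49, against 9.34, 7.63, 8.16, 8.45 and 8.17 in their left limb. Sham rats 11, 13, 15 and 17 read 8.89, 8.91, 8.50 and 7.74 in the sham right limb, against 8.34, 9.06, 8.93 and 8.24 in the sham left limb. The lowest right-limb values belonged to SNX rat 49 and sham rat 17, the arrays that stood apart from the rest. The right limb was lower in 3 of 5 SNX rats and 3 of 4 sham rats, with differences of -0.15 (SE 0.31, limma adjusted p 0.952) and -0.13 (SE 0.35, limma adjusted p 0.857).

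Set against sham rats, SNX rats had no regulator past the threshold in either limb. In the right limb the differences, SNX minus sham, ran from -0.31 for Sirt3 (SE 0.33, 95% interval -1.01 to 0.38, limma adjusted p 0.608) to 0.09 for Ppargc1a (SE 0.41, -0.79 to 0.97, limma adjusted p 0.912), and 6 of 8 were below 0. In the left limb they ran from -0.36 for Ppargc1a (SE 0.41, -1.23 to 0.52, limma adjusted p 0.906) to 0.24 for Ppargc1b (SE 0.30, -0.41 to 0.89, limma adjusted p 0.914). The intervals of Ppargc1a reach about a doubling in the right limb and more than a halving in the left, so differences of that size are not excluded by 5 against 4 rats. Markers of other cells differed between the same groups: 13 of 13 macrophage and 9 of 9 endothelial markers were lower in SNX than in sham rats in both limbs, with medians of -0.67 and -0.40 on the right and -0.96 and -0.28 on the left. Fibroblast markers were lower in 8 of 10 on the right (median -0.47) and 10 of 10 on the left (median -0.82). Schwann cell markers were lower in 4 of 5 in each limb (median -0.86 on the right, -1.83 on the left). Adipocyte markers were lower in 6 of 8 (median -0.92) and 5 of 8 (median -0.81). Slow fibre markers were lower in 10 of 10 on the right (median -0.52) and higher in 10 of 10 on the left (median 0.20). limma called 0 of all these markers. At a limma unadjusted p under 0.05 on the right were 3 macrophage, 4 endothelial, 5 fibroblast, 0 Schwann cell, 1 adipocyte and 0 slow fibre markers. On the left these counts were 5, 1, 7, 3, 3 and 0. Of all 31042 probe sets 2872 were at that p on the right and 1941 on the left. The part of these markers in the regulators' differences was not tested.

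Sirt3 was lower in SNX than in sham rats in both limbs by its mean, 8.20 ± 0.38 against 8.51 ± 0.55 on the right and 8.35 ± 0.63 against 8.64 ± 0.41 on the left (SD, n = 5 SNX and n = 4 sham), with overlapping values. For Tfam the differences were -0.02 in the right and -0.02 in the left limb, with intervals of -0.16 to 0.12 and -0.16 to 0.13. The response of Ppargc1a was larger in SNX than in sham rats by 0.44 (SE 0.58, 95% interval -0.80 to 1.69, limma adjusted p 0.9999), which is within the spread between rats.

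**Figure D3:**
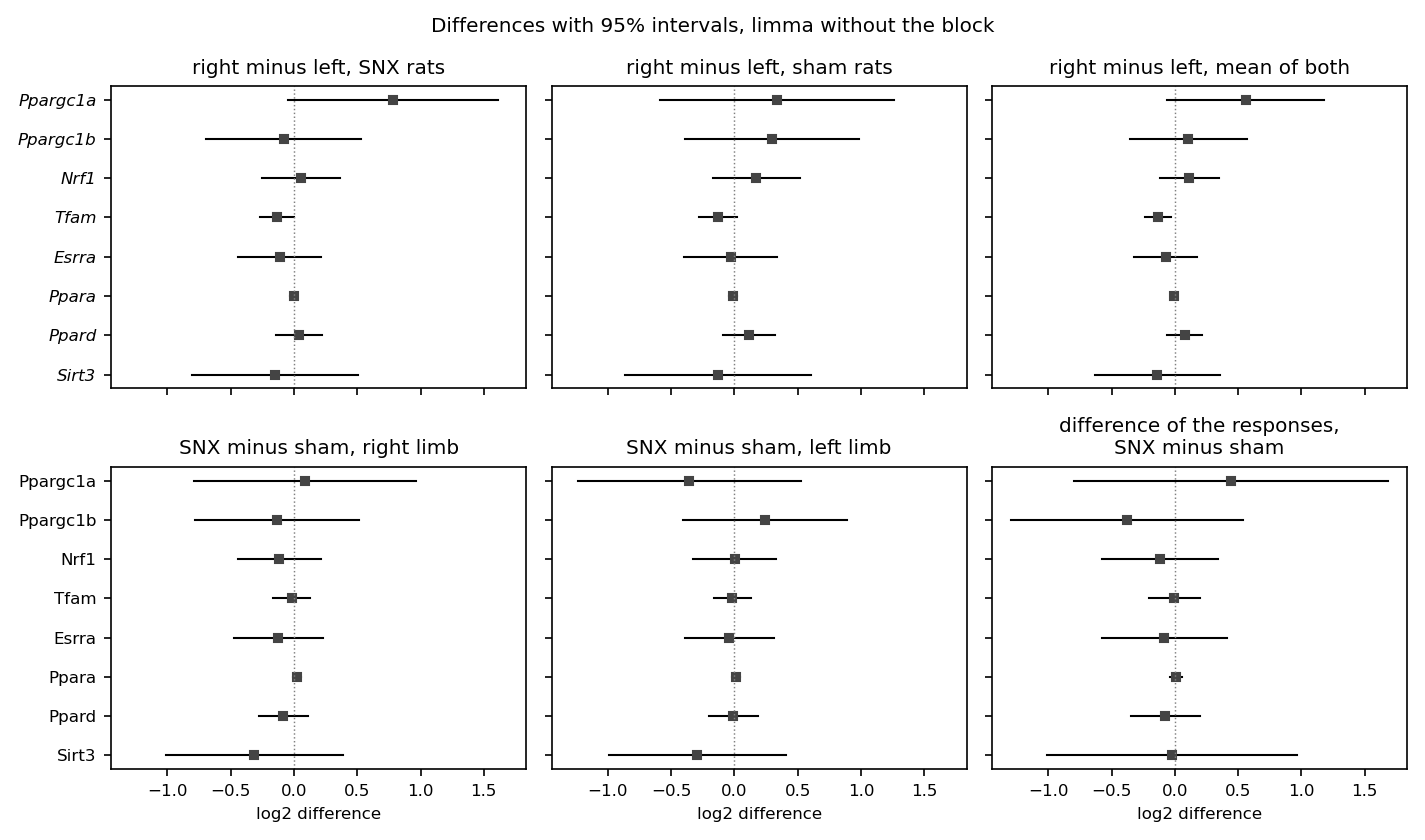
Log2 difference of each regulator with its 95% interval from limma (no block), in 6 panels for the 6 comparisons; a point right of the dotted line is higher in the group named first. Ppargc1a has the widest intervals of the right against left panels, and Tfam in the mean of both operations has the 1 interval of all panels that leaves out 0, at -0.23 to -0.03.

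The regulators did not vary as 1 block over the 18 arrays, in which both limbs of a rat share an animal. Sirt3, Esrra and Ppargc1b went together: Pearson's r was 0.77 for Sirt3 with Esrra, 0.65 for Sirt3 with Ppargc1b and 0.62 for Esrra with Ppargc1b. Tfam ran with Sirt3 at 0.57. Ppargc1a stood outside this group, with r of 0.01 to Esrra, -0.07 to Sirt3 and -0.37 to Tfam.

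Among 9063 genes whose probe set was above the median of all probe sets, those most like Ppargc1a over the 18 arrays were Hs6st1 (r 0.72), Rictor (0.70) and Necap1 (0.70). Rictor is the defining subunit of mTOR complex 2, and a link to Ppargc1a was not tested. All genes named here are the highest of 9063 correlations over 18 arrays. How high such maxima reach by chance was not tested. Those most like Tfam were Akr7a2 (0.90), Anp32e (0.88) and Itgae (0.86). Those most like Esrra, chosen after its values were seen, were Cyc1 (0.94), which encodes cytochrome c1, Letm1 (0.93), of the inner mitochondrial membrane, and Atp5pf (0.93), an ATP synthase subunit.

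Around the regulators, 127 of 137 listed pathway genes had a probe set of their own. Each was read on 1 probe set, that with the highest mean, and others of the same gene were not examined. Of the genes named as called below, Creb1 had 4 probe sets, Thra 3, and Nampt, Mef2c and Plin2 2 each. Over the mean of both operations limma called 8 of 127 (6.3%), against 3.59% of all 14217 genes, and with the rat as a random block 21 of 127 (16.5%), against 12.3% of genes. In SNX rats alone it called 0 of 127, with 16 at an unadjusted p under 0.05 and 1 with the block (Mterf2). Of all genes it called 0.0563% there, or 0.492% with the block, and 2459 of 31042 probe sets were at that p. In sham rats alone it called 0 of 127, with 23 at an unadjusted p under 0.05 and 6 with the block. The shares of all genes were 0.148% and 2.46%, with 3828 probe sets at that p. Between SNX and sham rats it called 0 of 127 in the right limb, in the left limb and for the difference of the responses, without and with the block, with 4, 5 and 5 at an unadjusted p under 0.05 without it. Of all probe sets 2872, 1941 and 437 were at that p. The counts of single lists below are over the mean of both operations. They stand against the same 3.59% and 12.3% of genes, and against 5866 probe sets at an unadjusted p under 0.05.

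Among genes that work beside Tfam on mitochondrial DNA, Mterf2 and Mterf3 fell in the ligated limb and most did not pass the test. Of 16 genes of mitochondrial transcription and replication measured, 2 fell, or 4 with the block, and none rose. The other 12 were not called even with the block; 14 of the 16 lay below 0 and the median difference was -0.15, against -0.01 for all genes. Mterf2, a member of the family that binds mitochondrial DNA and modulates its transcription, read 5.90, 5.52, 6.59, 5.82 and 5.39 in the SNX right limb of rats 12, 18, 20, 37 and 49, against 7.08, 6.73, 7.13, 7.31 and 7.10 in their left limb. In rats 11, 13, 15 and 17 it read 6.28, 6.48, 5.97 and 5.46 in the sham right limb, against 6.51, 7.15, 7.08 and 6.52 in the sham left limb. Every SNX right value was below every SNX left value, and the same held for the sham limbs.

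The mean Mterf2 difference was -0.996 (SE 0.17, 95% interval -1.37 to -0.63, limma adjusted p 0.0107), lower on the right in 9 of 9 rats, and it was called in 9 of 9 fits that left out a rat. It was -1.22 in SNX rats (limma adjusted p 0.107, 0.0191 with the block) and -0.77 in sham rats (limma adjusted p 0.241, 0.0806 with the block). Mterf3, which represses mitochondrial transcription in the mouse, fell by 0.21 on the log2 scale (SE 0.05, limma adjusted p 0.0355), lower in 9 of 9 rats. That call held in 1 of 9 fits that left out a rat, or in 9 of 9 with the block, and the adjusted p was 0.0683 without the 2 arrays that stood apart. Tfb2m, the transcription factor that melts the mitochondrial promoter beside TFAM, differed by -0.19 (SE 0.06), lower in 9 of 9 rats, with a limma adjusted p of 0.0924, or 0.0273 with the block. Without the 2 arrays apart, its blocked adjusted p was 0.0761, and the blocked call held in 4 of 9 fits that left out a rat. Macrophage markers moved the other way on the same arrays, higher on the right in 13 of 13 genes, of which 1 was called and 9 with the block; their part in these differences was not tested.

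**Figure D4:**
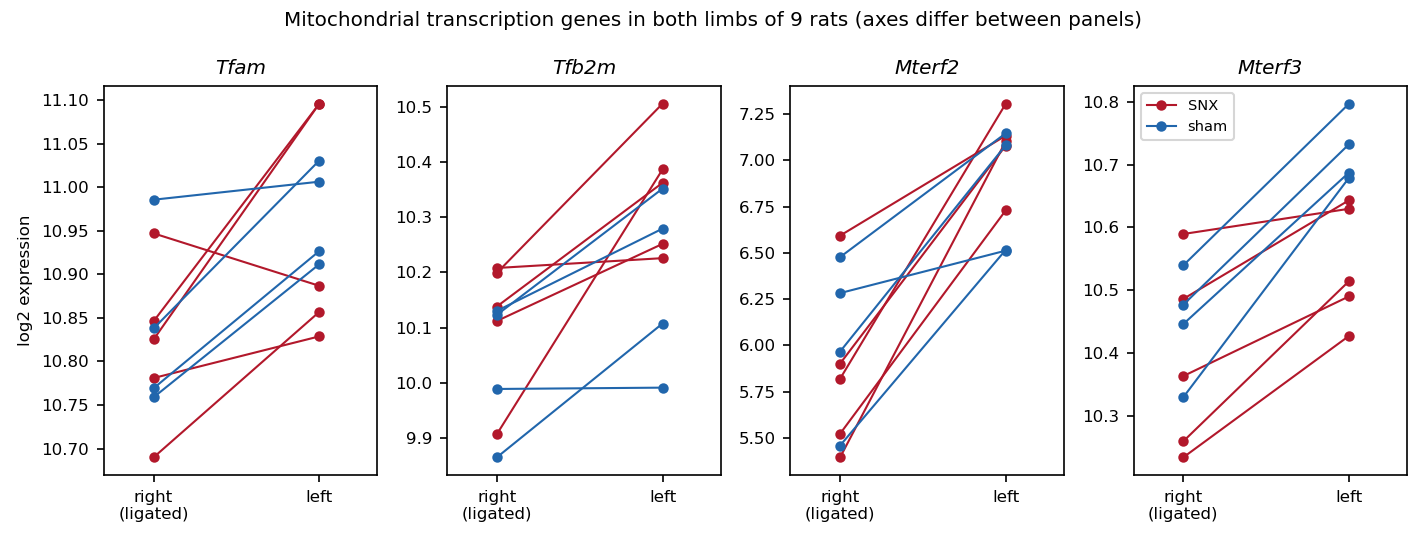
Log2 expression of Tfam and of genes of mitochondrial transcription in the right (ligated) and left limb of each rat, joined by a line, for 5 SNX and 4 sham rats. The right limb is the lower one for Mterf2, Mterf3 and Tfb2m in 9 of 9 rats, and for Tfam in 8 of 9.

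Partners and corepressors of the regulators moved in both directions. Of 21 measured, 1 rose and 1 fell, or 3 and 4 with the block. Nfe2l2, the antioxidant factor NRF2, rose by 0.37 (SE 0.08, limma adjusted p 0.0280) and was higher on the right in 9 of 9 rats. The rise was uneven, from 0.03 in SNX rat 12 to 0.87 in sham rat 17, whose right array stood apart. Without the 2 arrays apart Nfe2l2 differed by 0.29 (limma adjusted p 0.0410). Thra, the thyroid hormone receptor alpha, fell by 0.55 on the log2 scale (SE 0.12, limma adjusted p 0.0293) and was lower in 9 of 9 rats. Leaving out 1 rat kept the call of Nfe2l2 in 3 of 9 fits and that of Thra in 4 of 9, or in 9 of 9 each with the block.

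Pprc1, the third coactivator of the PGC-1 family and one that growth signals induce, was higher on the right in most rats. In rats 12, 18, 20, 37 and 49 it read 6.91, 6.77, 7.36, 7.53 and 8.36 in the SNX right limb, against 7.17, 6.00, 6.42, 6.60 and 6.61 in the SNX left limb. Sham rats 11, 13, 15 and 17 read 8.29, 7.42, 7.18 and 7.77 in the sham right limb, against 6.14, 7.13, 6.98 and 6.42 in the sham left limb. The right limb was higher in 8 of 9 rats, all but SNX rat 12. The mean difference was 0.91 (SE 0.23, limma adjusted p 0.0527, or 0.0185 with the block), and the blocked call held in 6 of 9 fits that left out a rat. Gabpa, the DNA-binding subunit of GABP, differed by -0.08 (limma adjusted p 0.676), and Esrrg, an ERR of oxidative muscle, by -0.02 (limma adjusted p 0.962).

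Of 22 upstream signalling genes measured, 1 rose and 3 fell, or 2 and 5 with the block. Prkaa2, the catalytic AMPK subunit prevalent in muscle, read 12.13, 11.82, 12.09, 11.74 and 11.38 in the SNX right limb of rats 12, 18, 20, 37 and 49, against 11.92, 12.06, 12.12, 12.38 and 12.22 in their left limb. In rats 11, 13, 15 and 17 it read 11.40, 11.50, 11.85 and 11.41 in the sham right limb, against 12.10, 12.09, 12.34 and 12.05 in the sham left limb, with no overlap between these sham groups. The mean difference was -0.46 (SE 0.10, limma adjusted p 0.0313), with the right lower in 8 of 9 rats, SNX rat 12 being the exception.

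Creb1, which encodes the factor of the cAMP response element, fell by 0.48 on the log2 scale (SE 0.10, limma adjusted p 0.0262), lower in 9 of 9 rats. Nampt, whose product makes a precursor of NAD, which sirtuins consume, rose by 0.55 (SE 0.11, limma adjusted p 0.0193), higher in 9 of 9 rats. Mef2c, a muscle transcription factor named after its values were seen, fell by 0.24 on the log2 scale (SE 0.06, limma adjusted p 0.0381). Leaving out 1 rat kept these calls in 3 of 9 fits for Prkaa2, 5 of 9 for Creb1, 6 of 9 for Nampt and 2 of 9 for Mef2c, or in 9 of 9 each with the block. Without the 2 arrays apart, Mef2c had an adjusted p of 0.0822. Sirt1, the deacetylase that activates PGC-1alpha, and Cycs, cytochrome c, were not analysed here, since no probe set named either of them alone.

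Downstream, the genes that the regulators are known to switch on shifted little. Of 26 nuclear respiratory and TCA cycle genes measured, limma called 0 over the mean of both operations, with 4 at an unadjusted p under 0.05 and 1 with the block, Ndufs3 of complex I (-0.23, limma adjusted p 0.110, or 0.0318 with the block). Of these 26 genes 23 lay below 0, with a median of -0.09. Ndufs3 differed by -0.15 without the 2 arrays apart, with a blocked adjusted p of 0.0763, and its blocked call held in 3 of 9 fits that left out a rat.

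Of 22 fatty acid genes under PPAR control, limma called 0, with 2 at an unadjusted p under 0.05 and 1 with the block, the lipid droplet coat gene Plin2 (0.67, limma adjusted p 0.0716, or 0.0293 with the block). Without the 2 arrays apart the blocked adjusted p of Plin2 was 0.104, and its blocked call held in 4 of 9 fits that left out a rat. Their median was -0.04. Pdk4, the kinase that shuts pyruvate out of the TCA cycle, differed by 0.12 (limma adjusted p 0.768), and Cpt1b, which admits fatty acids to the mitochondrion, by -0.04 (limma adjusted p 0.898).

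Ucp3 and Angptl4, both known PPARdelta targets in muscle, scattered more. Ucp3, an uncoupling protein of muscle, read 8.96, 9.28, 8.97, 7.94 and 6.19 in the SNX right limb of rats 12, 18, 20, 37 and 49, against 8.51, 9.18, 8.66, 7.86 and 7.52 in their left limb. Sham rats 11, 13, 15 and 17 read 7.30, 7.06, 8.16 and 8.93 in the sham right limb, against 8.61, 8.84, 8.82 and 10.87 in the sham left limb. The right limb was lower in 4 of 4 sham rats and higher in 4 of 5 SNX rats. The difference of these responses, SNX minus sham, was 1.34 (SE 0.91, 95% interval -0.59 to 3.27, limma p 0.160 and adjusted p 0.9999) and did not pass the test.

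Angptl4, an inhibitor of lipoprotein lipase, read 5.59, 6.26, 2.71, 8.35 and 6.78 in the SNX right limb of rats 12, 18, 20, 37 and 49, against 4.86, 2.44, 2.46, 6.81 and 2.86 in their left limb. Sham rats 11, 13, 15 and 17 read 3.26, 6.59, 5.93 and 8.40 in the sham right limb, against 2.47, 6.35, 6.71 and 8.15 in the sham left limb. The right limb was the higher one in 5 of 5 SNX rats and 3 of 4 sham rats, with limma adjusted p of 0.770 and 0.968. Several of these readings, the left limbs of SNX rats 18, 20 and 49 among them, lay below the array medians, so the mean differences are no measure of size.

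Of the 5 other sirtuins measured limma called 0, with 2 at an unadjusted p under 0.05 and 0 with the block. Of 15 genes of mitochondrial dynamics and import it called 0, with 6 at an unadjusted p under 0.05 and 1 with the block, Tspo, an outer membrane protein (1.06, limma adjusted p 0.0929, or 0.0312 with the block). The Tspo difference was 0.64 without the 2 arrays apart (limma adjusted p 0.0983), or 0.65 with the block (0.0287), so the blocked call held there. Those arrays had the highest macrophage marker means of their groups, 9.15 in sham rat 17 and 8.47 in SNX rat 49. The part of these markers in the Tspo difference was not tested. The blocked call of Tspo held in 3 of 9 fits that left out a rat.

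**Figure D5:**
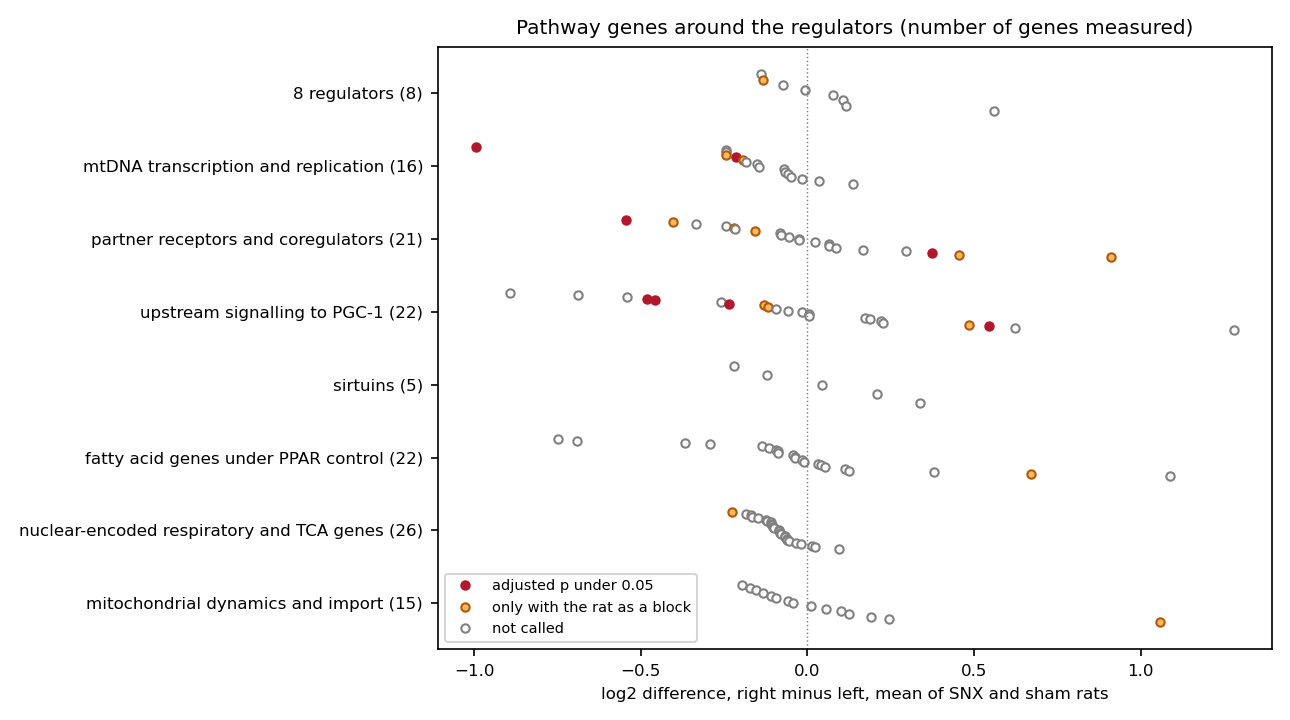
Log2 difference, right minus left over the mean of SNX and sham rats, of every measured gene of the 7 pathway lists and of the 8 regulators; each point is a gene, filled red where limma's adjusted p was under 0.05, orange where it was so only with the rat as a block, and open otherwise. Mterf2 lies at -0.996, far left of the other genes of mitochondrial transcription, and 23 of 26 respiratory and TCA genes lie left of 0.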

How the data were processed

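RNA of soleus was labelled with biotin from 2 micrograms of total RNA per array and hybridised to Affymetrix rat arrays, per the labels' protocols. The authors deposited log2 values of 31099 probe sets, already normalized. The submitters' processing notes name RMA, GCRMA and Partek with no role or version, so whether RMA or GCRMA gave these values is unknown here. RMA and GCRMA differ in background correction, which changes the spread of dim probe sets most. Scanner files were not used here, so signal over background was not measured, and the number of arrays limits the precision.

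After 57 control probe sets were left out, 31042 were tested. Gene symbols came from the platform's annotation, updated through Entrez identifiers to RefSeq of build GRCr8: 20826 probe sets had 1 gene, 436 had several and 9780 had none. The probe set with the highest mean over 18 arrays represents a gene.

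limma 3.58.1 in R 4.3.3 fitted 1 mean per group (lmFit and eBayes, two-sided, Benjamini-Hochberg, threshold 0.05) with 14 residual degrees of freedom and no block. Alternatives tied the 2 limbs of a rat by duplicateCorrelation (consensus correlation 0.297) or as a fixed term, fitted only the groups compared, centred or quantile normalized the arrays again, left out dim probe sets, used eBayes with a trend or robust prior, left out each rat or the 2 arrays least like the rest, and counted a gene by any of its probe sets. Leaving out rats or arrays within the blocked fit was added after the data were seen. The pairing comes from the titles, in which both limbs carry the rat's number: deviations from the group means correlated at over 0.1 between the limbs of 7 of 9 rats, and 6 of 9 left arrays were most like their own right array. The labels do not say that the numbers mark animals, nor give a batch. p-values of the main fit measure the spread between rats within a group and treat the 2 limbs of a rat as independent. The random block allows for the correlation of the limbs. With the rat as a fixed term they measure the spread between rats of the right minus left difference. No 2 arrays held identical values. The fit was tested on simulated data.

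The 8 regulators, the 7 pathway lists and the 8 marker lists were chosen with earlier results of these data known, so they are described by counts and medians with no test of the list. Named in the text are the regulators, up to 2 risen and 2 fallen genes per pathway list, 12 fixed genes, and the 3 genes most correlated with Ppargc1a and Tfam; exceptions are said to be so. Promoter windows were read from a RefSeq table, which held 7 of the 8 regulators (not Ppard), and searched on both strands.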

Additional observations from a re-analysis of the deposited data

Results flagged for a closer look

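Nrf1 was 5.1222 in the right limb of sham rat 13, against 4.5498 in the next sham right limb and 4.506 in the lowest; this gap is 0.929 of the group's range, above Dixon's critical value of 0.829 for 4 samples. Nrf1 was 4.7265 in the right limb of SNX rat 49, against 4.5358 in the next SNX right limb and 4.5034 in the lowest, a gap of 0.855 of the range against a critical value of 0.71 for 5 samples. These are 2 of 32 combinations of gene and group examined, and chance alone sets apart about 1 in 20 groups. The left limb of sham rat 13 was also the highest sham left limb, at 4.96.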

How the results depend on the processing

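With the rat as a random block, 1 of 8 regulators (Tfam) was called in the right against the left limb over the mean of both operations, in place of 0. Leaving out each rat within that blocked fit, an alternative chosen after seeing the data, gave 0 to 1, with 1 without SNX rat 18 or SNX rat 20. Under every other alternative of the methods the count was 0 in each comparison that could be fitted. Of 826 differences of regulators under those alternatives (without those added later), 1 was called, 6 moved by more than 1 standard error (of Ppara, Ppard and Nrf1, each uncalled) and 50 had the other sign, all of them uncalled. Over the mean of both operations Tfam kept a negative difference, from -0.16 to -0.10 with adjusted p from 0.0491 to 0.380, and Ppargc1a a positive one, from 0.43 to 0.66 with adjusted p from 0.130 to 0.526. The block changed no other call of a regulator.

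Counts over all probe sets depended more on the settings, and the cause was not tested. Over the mean of both operations 791 were called, against 2808 with the random block, 1796 without dim probe sets and 153 to 1007 when 1 rat was left out; the count fell by more than 1.5 times without any rat other than SNX rats 12 and 20. In SNX rats 14 were called, against 99 with the random block, 6 with a fixed rat term, 0 from the 2 SNX groups alone, 33 without dim probe sets and 0 to 8 when any 1 rat was left out. In sham rats 46 were called, against 559, 117, 11 and 145 under the same settings with the sham groups alone, 183 without the 2 arrays least like the rest, and 0 to 284 when any 1 rat was left out, above 46 without SNX rat 49 and below it without each other rat. Between SNX and sham rats the counts without a block were 0 to 10 in the right limb, 0 to 12 in the left and 0 to 1 for the difference of the responses. The probe set of Ppara, and 1 probe set each of Nrf1 and Ppard, lay below the median of every array, which limits what their differences can show.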
